A study of Homo sapiens with 12 samples.

Results

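The mitochondrial ribosome translates the few messages of the mitochondrial genome, which encode core subunits of the respiratory chain and of ATP synthase. Its RNAs come from mitochondrial DNA, while all of its proteins are encoded in the nucleus, made in the cytosol and imported. Many of these proteins descend from the bacterial ribosome, and others were added in the mitochondrial lineage. The genes described here are those whose symbol is MRPL or MRPS followed by a digit. Of 77 such protein-coding genes in the gene table, 51 were measured here, out of 11963 genes in all, and 26 were not analysed here. The 51 comprise 31 MRPL and 20 MRPS genes.

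The arrays came from MDA-MB231, an established human line of triple-negative breast cancer, kept for 24 h with 1 of 3 compounds or the vehicle, with 3 arrays in each group. The groups were rotenone, which inhibits respiratory complex I and also binds tubulin, digoxin, a glycoside drug for the heart that inhibits the sodium pump, manassantin, a plant lignan, and DMSO, the vehicle. All 4 groups shared the medium, DMEM with serum and antibiotics. The sample titles name digoxin where the series' design names digitoxin, so which of these glycosides the cells received is open, and the titles' name is used. The design names the third compound manassantin A. The sources used here give neither doses nor oxygen level, and 1 line under 1 exposure time is all that the groups represent. Whether replicate arrays stem from different cultures is not stated, and p-values therefore reflect only how far these arrays spread, which may be technical.

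Values are log2 probe set intensities on a scale common to the arrays, for the brightest probe set of each gene, and differences are compound minus DMSO on that scale. A gene is called where its Benjamini-Hochberg adjusted p over all 11963 genes was under 0.05 in limma. Values of different genes come from different probes. The SD of a member within a group ran from 0.00496 to 0.295 with a median of 0.0495. A gene is dim where its mean over the 12 arrays lay under 5.75, the 40th percentile of all genes. Of the members, 2 were dim, MRPS18C with DMSO values of 4.60, 4.48 and 4.71 and MRPL41 with 5.39, 5.34 and 5.23. The next lowest reading was that of MRPL44, with a DMSO mean of 6.18, and the highest readings were DMSO means of 11 for MRPS10, 10.98 for MRPL33 and 10.91 for MRPL3, which gives no order of transcript levels.

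Of the markers set for the line, VIM, CD44, CAV1, MSN, AXL and EGFR had means from 9.66 to 13.19, and SPARC was dim at 3.85. PGR, FOXA1 and CDH1 were dim, while ESR1 (6.19), ERBB2 (7.92), GATA3 (8.002), EPCAM (7.87) and KRT19 (10.29) were not. PTPRC, CD3E, PECAM1 and ALB, which mark blood, vessel and liver cells, were all dim. The control for 18S ribosomal RNA averaged 10.0 with rotenone, 10.1 with digoxin and 9.83 with manassantin, against 10.4 with DMSO. The spike-in dap control had a 3′ minus 5′ difference of 2.68 with rotenone, 2.75 with digoxin and 3.07 with manassantin, against 2.49 with DMSO, and that of the thr control was 2.92, 3 and 3.06, against 2.67 with DMSO. The part of these control measures in the results was not tested beyond a fit that holds the 18S control as a covariate.

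Promoters were compared first, as a feature that the choice of members did not use. RefSeq windows of 250 bases before to 50 after a gene's start were available for 45 of the 51 members on GRCh38.p14, and the first listed start was used for the 8 members with several. MRPL2, MRPL13, MRPL15, MRPL23, MRPL35 and MRPS28 had no entry. The letters CCGGAAG, read on both strands as a match to ETS factors such as GABPA, stood in 18 of 45 windows (40%), against 15.2% of the 9563 windows of measured genes and 10.7% of the 27305 in the table. ATGGCGG, part of the YY1 motif, stood in 15 of 45 (33.3%), against 8.85% of measured genes and 5.72% of the table. In 13 of those 15 members the match read in the gene's direction and lay after the start, where the same letters can be the first codons of the protein. In all, 28 of 45 members (62.2%) held at least 1 of these matches, against 22% of measured genes, and 5 held both. The NRF1 motif stood in 3 of 45 (6.67%), against 9.47% of measured genes. GGGCGG, which matches SP1, was in 60% of the members' windows and 63.1% of those of measured genes. CCAAT was in 26.7% and 37.3%, and the E-box CACGTG in 6.67% and 9.51%. GGGCGG and ATGGCGG end in the same letters, each motif was searched on its own on both strands, and a match describes the letters only.

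The promoters of 4 members on which the results turn are given here 5′ to 3′ on the gene's strand, with matches to CCGGAAG, the NRF1 motif or ATGGCGG on either strand in capitals. MRPS30 was called higher with both rotenone and digoxin on its brighter probe set but not on its other one, MRPS18A had the largest rise with digoxin, MRPL34 had the largest fall, and MRPL48 was called in opposite directions with rotenone and digoxin. The windows are chr5:44808697-44808996 (plus strand) for MRPS30, chr6:43687742-43688041 (minus) for MRPS18A, chr19:17292323-17292622 (plus) for MRPL34 and chr11:73787624-73787923 (plus) for MRPL48, and each runs from outside the gene into its first transcribed bases.
MRPS30: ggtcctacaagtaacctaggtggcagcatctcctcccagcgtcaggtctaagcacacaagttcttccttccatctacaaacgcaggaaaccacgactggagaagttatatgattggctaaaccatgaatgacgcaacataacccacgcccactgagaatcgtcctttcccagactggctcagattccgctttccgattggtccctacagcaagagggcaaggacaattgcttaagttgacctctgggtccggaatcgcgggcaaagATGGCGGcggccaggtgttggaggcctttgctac
MRPS18A: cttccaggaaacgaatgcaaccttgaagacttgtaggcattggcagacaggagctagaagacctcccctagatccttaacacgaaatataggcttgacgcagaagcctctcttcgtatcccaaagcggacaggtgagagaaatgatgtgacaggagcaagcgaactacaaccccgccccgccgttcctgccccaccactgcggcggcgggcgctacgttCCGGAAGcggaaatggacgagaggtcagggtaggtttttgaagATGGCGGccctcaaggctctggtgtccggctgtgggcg
MRPL34: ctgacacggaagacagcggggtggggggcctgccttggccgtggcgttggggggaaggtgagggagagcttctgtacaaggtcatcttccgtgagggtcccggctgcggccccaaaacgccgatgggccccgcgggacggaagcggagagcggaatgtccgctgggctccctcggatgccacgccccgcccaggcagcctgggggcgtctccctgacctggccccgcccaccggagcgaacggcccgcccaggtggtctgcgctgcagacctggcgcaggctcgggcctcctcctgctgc
MRPL48: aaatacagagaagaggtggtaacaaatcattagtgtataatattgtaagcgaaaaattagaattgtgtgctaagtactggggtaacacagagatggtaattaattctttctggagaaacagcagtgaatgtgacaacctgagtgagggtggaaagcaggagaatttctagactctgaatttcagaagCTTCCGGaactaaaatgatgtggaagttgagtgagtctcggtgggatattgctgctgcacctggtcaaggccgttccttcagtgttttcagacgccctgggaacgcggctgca
MRPS30 held 1 match, to ATGGCGG after its start. MRPS18A held 2, CCGGAAG before the start and ATGGCGG after it. MRPL48 held CCGGAAG on the other strand, and MRPL34 held none of the 3. With digoxin, CCGGAAG stood in 5 of the 12 members called higher, 9 of the 16 called lower that have a window, and 4 of the 17 not called. ATGGCGG stood in 5, 3 and 7 of these. No test was made of these counts.

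**Figure D1:**
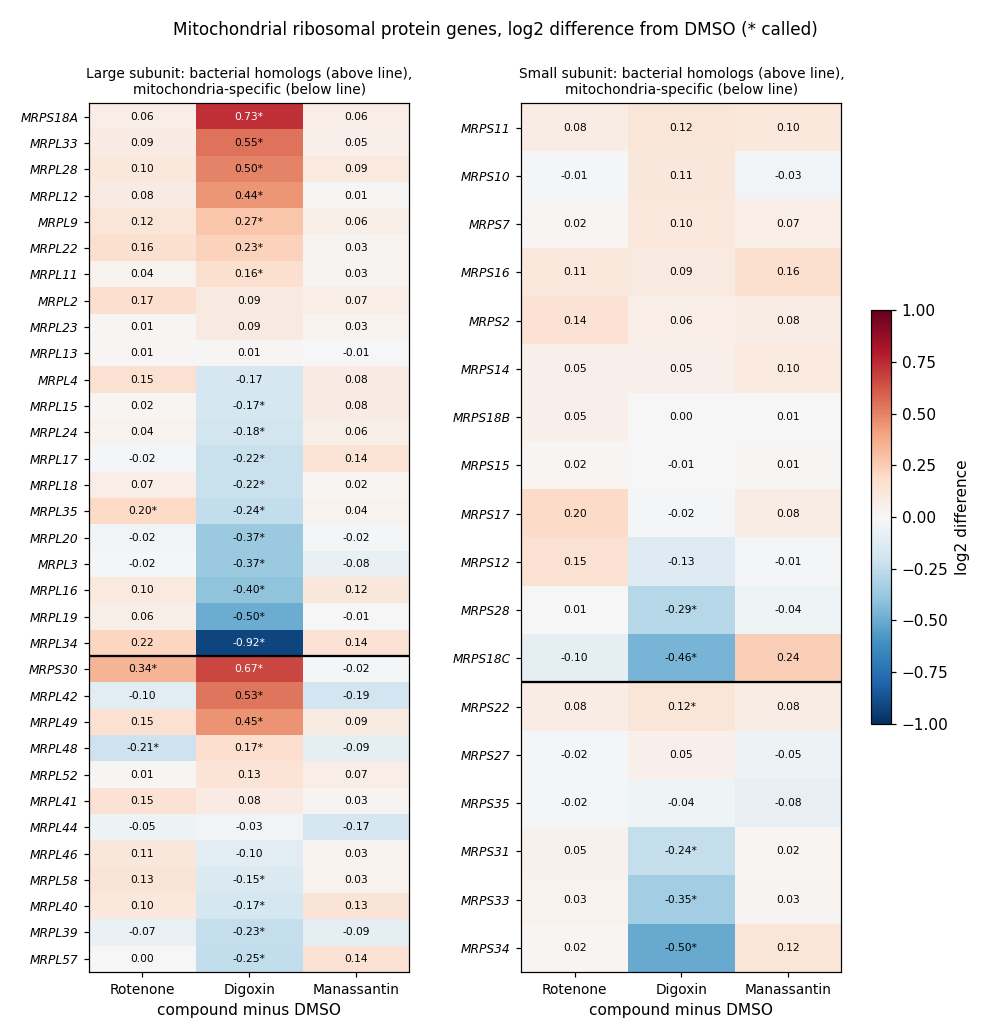
Log2 difference from DMSO of each of the 51 members (rows) with rotenone, digoxin and manassantin (columns), by subunit and by origin, with an asterisk where limma's adjusted p was under 0.05. The digoxin column ranges from -0.92 for MRPL34 to 0.73 for MRPS18A, while rotenone has 3 asterisks and manassantin 0.

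Rotenone against DMSO asked which of these transcripts moved under a respiratory chain inhibitor. MRPL35 rose, MRPL48 fell, MRPS30 was higher on the brighter of its probe sets only, and the other 48 members were not called. That is 3 of 51 members, 5.88%, where 6.94% of all genes were called in either direction. The share is near the background. By direction, 3.55% of all genes were called higher and 3.39% lower.

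MRPS30 encodes a mitochondria-specific protein that carries a small-subunit name but sits in the large subunit. Its gene spans chr5:44808947-44815514. It read 9.45, 9.47 and 9.45 on the rotenone arrays, against 9.11, 9.11 and 9.14 on the DMSO arrays. The groups were well apart, and the difference was 0.34 ± 0.044 (SE, n = 3 arrays per group), a fold of 1.26 (limma adjusted p = 0.000841). This rests on the brighter of the gene's probe sets. The other read 6.60, 6.52 and 6.51 with rotenone, against 6.76, 6.65 and 6.76 with DMSO. It leaned the opposite way, at -0.18 (limma adjusted p = 0.0632 in a fit of every probe set). With the mean of both probe sets MRPS30 was not called, at 0.08 (limma adjusted p = 0.313).

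MRPL35, homolog of a small protein of the bacterial large subunit, read 10.03, 10.14 and 10.06 with rotenone, against 9.87, 9.86 and 9.91 with DMSO. All rotenone arrays lay above all DMSO arrays, by 0.20 ± 0.046 (limma adjusted p = 0.024). MRPL48, a mitochondria-specific protein of the large subunit, read 8.65, 8.64 and 8.64 with rotenone, against 8.75, 8.88 and 8.93 with DMSO. Every rotenone array was below every DMSO array and the difference was -0.21 ± 0.050 (limma adjusted p = 0.0274). The calls of MRPL35 and MRPL48 were near the threshold. The count of called members was 1 without DMSO replicate 2, DMSO replicate 3, rotenone replicate 2 or rotenone replicate 3, and 1 with the 18S covariate, where MRPS30 was the one that passed at 0.34 (limma adjusted p = 0.00666). In these fits the share called fell for all genes too, to between 2.83% and 4.05%, against 1.96% of members.

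Small differences of the members leaned upward with rotenone. Of the 51, 40 lay above 0 (78.4%), against 54.3% of all genes, 83.9% of cytosolic ribosomal proteins and 57.1% of respiratory subunits, with a median of 0.048 against 0.012 for all genes, and none differed by more than 0.5. Arrays of the groups did not overlap for 20 of the 51, 18 of them above DMSO, where 31.2% of all genes had groups that did not overlap. Of all 11963 genes, 2017 lay apart above DMSO and 1716 below. MRPL34 stood at 0.22 (limma adjusted p = 0.051), MRPS17 at 0.20 (adjusted p = 0.0608) and MRPL22 at 0.16 (adjusted p = 0.0672), and these 3 were picked here after their values were seen. The SD of the members' median between arrays of a group, pooled over all 4 groups, was 0.0568. This is a spread of single arrays and not of a difference between group means. It therefore does not decide whether the lean exceeds array noise, which was not tested.

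Digoxin against DMSO moved many members, in both directions. Of the 51, 12 rose and 19 fell, 60.8% in all, where 54.8% of all genes were called in either direction, 28% higher and 26.9% lower. With dim genes left out the order turned, with 32 of 49 members called (65.3%), where 73% of the genes kept were called. MRPS18A, MRPS30 (on 1 of its probe sets), MRPL33 and MRPL42 led the rises, and MRPL34, MRPS34, MRPL19 and MRPS18C the falls. The median was -0.0052, against 0.0651 for all genes. These differences depend on the scale. With each array centred on its median over all genes, the median over all genes moved to 0.252 and the split of called members to 28 higher and 7 lower. That is 35 of 51 members (68.6%), where 76.2% of all genes were called under this centring. MRPL15, MRPL24, MRPL40 and MRPL58 then turned in sign to between 0.005 and 0.04 and were not called.

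MRPS18A, 1 of 3 human relatives of a bacterial small-subunit protein and itself a part of the large subunit, spans chr6:43671202-43687791. It read 9.26, 9.30 and 9.38 with digoxin, against 8.53, 8.64 and 8.57 with DMSO. The digoxin arrays stood far above, by 0.73 ± 0.061, a fold of 1.66 (limma adjusted p = 7.07e-07). The gene's second probe set moved likewise, at 0.82 ± 0.072 (limma adjusted p = 1.13e-06 in the fit of every probe set). The relatives behaved otherwise: MRPS18B read 9.54, 9.60 and 9.60 with digoxin, against 9.57, 9.58 and 9.59 with DMSO, a difference of 0.00 ± 0.046 (limma adjusted p = 0.984). The dim gene MRPS18C read 3.79, 4.28 and 4.32 with digoxin, against 4.60, 4.48 and 4.71 with DMSO. It fell by 0.46 on the log2 scale (limma adjusted p = 0.0323), a call that was lost without DMSO replicate 1, DMSO replicate 3 or digoxin replicate 1, with the 18S covariate and with arrays centred on their medians.

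MRPS30 read 9.76, 9.75 and 9.85 with digoxin, against 9.11, 9.11 and 9.14 with DMSO, 0.67 ± 0.044 higher on this probe set (limma adjusted p = 8.93e-08). Its other probe set read 6.36, 6.32 and 6.35 with digoxin, against 6.76, 6.65 and 6.76 with DMSO. The probe sets of this gene were thus called in opposite directions, the second at -0.38 ± 0.051 (limma adjusted p = 4.07e-05 in the fit of every probe set), so the direction of the MRPS30 transcript as a whole is not settled by these arrays.

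MRPL33, homolog of a small protein of the bacterial large subunit, read 11.52, 11.51 and 11.55 with digoxin, against 10.98, 10.94 and 11.02 with DMSO. It was higher on every digoxin array, by 0.55 ± 0.041 (limma adjusted p = 3.26e-07). MRPL42, a mitochondria-specific protein, read 10.38, 10.47 and 10.44, against 9.87, 9.86 and 9.96 with DMSO (0.53 ± 0.065). MRPL28 (0.50), MRPL49 (0.45) and MRPL12 (0.44), the last a homolog of the bacterial stalk protein that recruits translation factors, rose as well. So did MRPL9 (0.27), MRPL22 (0.23), MRPL48 (0.17), MRPL11, a protein of the stalk base (0.16), and MRPS22 (0.12), the 1 small-subunit protein among the 12. MRPS22 lost its call in 9 of 15 alternatives and MRPL11 in 4, among them without DMSO replicate 2 for both, and MRPL48 lost it without DMSO replicate 1.

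**Figure D2:**
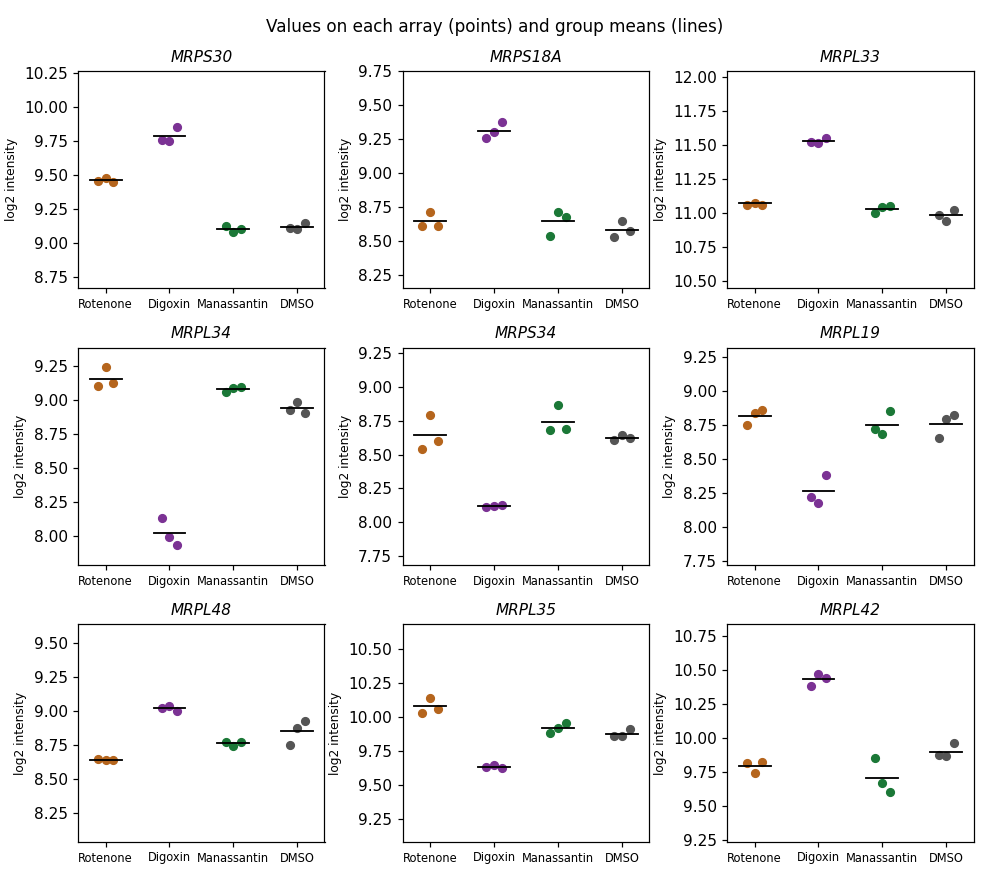
Log2 intensity on each array (points) with group means (lines) for 9 members, with the groups on the x axis and the same height of scale in each panel. Digoxin arrays stand apart from DMSO in every panel, above in MRPS30, MRPS18A, MRPL33, MRPL48 and MRPL42 and below in MRPL34, MRPS34, MRPL19 and MRPL35, and rotenone arrays stand apart from DMSO upward in MRPS30, MRPL35, MRPL33 and MRPL34 and downward in MRPL48 and MRPL42.

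MRPL34, homolog of a short basic protein of the bacterial large subunit, had the largest fall and spans chr19:17292573-17306843. It read 8.13, 7.995 and 7.93 with digoxin, against 8.92, 8.99 and 8.91 with DMSO. The gap was 0.92 on the log2 scale (-0.92 ± 0.060, a ratio of 0.529, limma adjusted p = 8.49e-08). MRPS34, a mitochondria-specific protein of the small subunit, read 8.11, 8.12 and 8.13 with digoxin, against 8.61, 8.65 and 8.62 with DMSO, with no overlap (-0.50 ± 0.069). MRPL19 read 8.23, 8.18 and 8.38 with digoxin, against 8.66, 8.79 and 8.83 with DMSO (-0.50 ± 0.070). These 3 falls passed in every alternative tried.

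Further falls were of MRPL16 (-0.40), MRPL3 (-0.37), whose bacterial homolog lies near the peptidyl transferase centre, MRPL20 (-0.37), MRPS33 (-0.35), MRPS28 (-0.29), MRPL57 (-0.25), MRPL35 (-0.24) and MRPS31 (-0.24). The remaining 7 called lower lay between -0.235 and -0.146. MRPL58, a peptidyl-tRNA hydrolase built into the large subunit, was the smallest of them, and its call was lost in 7 alternatives and turned in sign in 1. MRPS12, a protein of the decoding site, was not called, at -0.13 (limma adjusted p = 0.16). For MRPL20, the mean of the gene's probe sets gave -0.08 and no call, its second probe set being dim at a mean of 3.88. In the fit of every probe set, the second probe set of MRPS31 (mean 8.36) was not called, at -0.09 (limma adjusted p = 0.131). For MRPL57, the probe set with a mean of 7.89 was not called (0.04, limma adjusted p = 0.6). Its probe set with a mean of 6.61 was called lower (-0.32, limma adjusted p = 0.000323).

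By place in the ribosome, 25 of 33 large-subunit members were called with digoxin, 11 higher and 14 lower, and 6 of 18 small-subunit members, 1 higher and 5 lower. These are 75.8% and 33.3%, where 54.8% of all genes were called, 28% higher and 26.9% lower. With dim genes left out, 73% of the genes kept were called. By origin, 19 of 33 with a bacterial homolog were called, 7 higher and 12 lower, and 12 of 18 specific to mitochondria, 5 higher and 7 lower. The median absolute difference was 0.229 in the large subunit, 0.108 in the small one and 0.228 over all genes. The difference between subunits was not tested.

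Of the 31 calls, 15 passed in all 15 alternatives, 9 higher and 6 lower. The higher ones were MRPS18A, MRPS30, MRPL33, MRPL42, MRPL28, MRPL49, MRPL12, MRPL9 and MRPL22, and the lower ones MRPL34, MRPS34, MRPL19, MRPL16, MRPL3 and MRPS33. This does not cover the other probe set of MRPS30, which was called lower. Another 10, all called lower, failed only when arrays were centred on their medians. The split of 9 to 6 thus depends on that setting. Arrays of digoxin and DMSO did not overlap for 38 of 51 members, where 61.9% of all genes had groups that did not overlap.

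**Figure D3:**
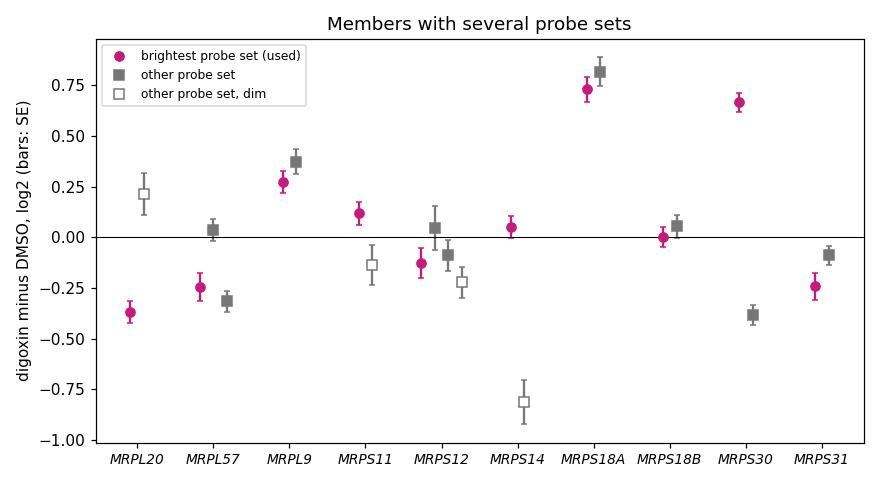
Digoxin minus DMSO (log2, bars are SE) for each probe set of the 10 members with several, where circles are the probe sets used and open squares are dim. The points of MRPS18A, MRPL9 and MRPS18B lie close together, those of MRPS30 lie at 0.67 and -0.38, and those of MRPS14 at 0.05 and -0.81.

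The 10 members with several probe sets had 13 others beside the ones used. With digoxin, 3 of the 13 were called in the same direction as the one used, 1 in the opposite direction, 2 where the used one was not, 3 were not called where the used one was, and 4 pairs had neither called. MRPS14, a small-subunit protein, is an example. Its bright probe set read 9.65, 9.78 and 9.76 with digoxin, against 9.65, 9.71 and 9.67 with DMSO. The dim one read 4.74, 4.46 and 4.86 with digoxin and 4.86, 4.70 and 4.72 with rotenone, against 5.41, 5.59 and 5.49 with DMSO. The dim probe set was thus lower on all 6 of these treated arrays, while the bright one stood at 0.05 in both. Its difference was -0.81 with digoxin (limma adjusted p = 4.35e-05) and -0.74 with rotenone (limma adjusted p = 0.00256). With manassantin the dim probe set read 5.459, 5.215 and 5.104, which overlaps DMSO, and was not called (-0.24, limma adjusted p = 0.34).

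Manassantin against DMSO gave no called member: 0 of 51 by limma, where 0.97% of all genes were called, 0.853% higher and 0.117% lower, and 7 members had an unadjusted p under 0.05 (13.7%, against 15.8% of all genes). Differences ran from -0.19 for MRPL42 to 0.24 for the dim gene MRPS18C, named here after their values were seen. MRPL42 read 9.85, 9.67 and 9.60 with manassantin, against 9.87, 9.86 and 9.96 with DMSO, so the arrays did not overlap, but the limma adjusted p was 0.168. Groups did not overlap for 13 of the 51, where 22.4% of all genes had groups that did not overlap. MRPS30 read 9.12, 9.08 and 9.10 with manassantin, within 0.02 of DMSO on average (-0.02 ± 0.044). The median was 0.0325, against 0.00689 for all genes, with 37 of 51 above 0 (72.5%, against 52.5% of all genes, 69.6% of cytosolic ribosomal proteins and 74.6% of respiratory subunits). With arrays centred on their medians the members' median was 0.00239, against -0.0232 for all genes. Rotenone, digoxin and manassantin were set against the same DMSO arrays, so a lean shared between them is not independent.

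**Figure D4:**
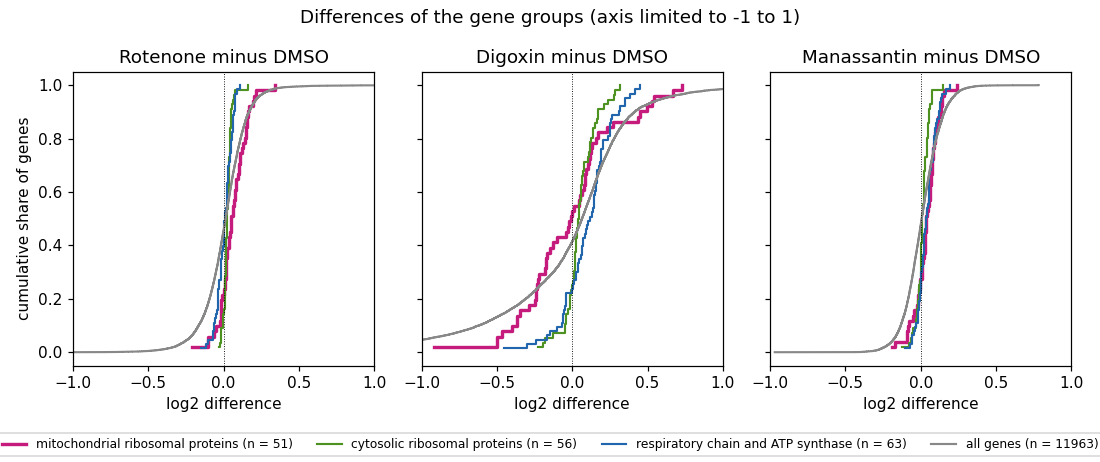
Cumulative share of genes (y axis) by log2 difference from DMSO (x axis) for the 51 mitochondrial ribosomal proteins, 56 cytosolic ribosomal proteins, 63 respiratory chain and ATP synthase subunits and all 11963 genes. With digoxin the mitochondrial ribosomal proteins spread to both sides, from -0.92 to 0.73. The cytosolic ribosomal proteins and respiratory subunits lie within -0.45 and 0.45. All genes spread furthest, from -3.44 to 3.81, beyond the axis.

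Manassantin against rotenone compared these compounds directly. MRPS30 was lower with manassantin, with 9.12, 9.08 and 9.10, against 9.45, 9.47 and 9.45 with rotenone, and the groups were well apart (-0.36 ± 0.044, limma adjusted p = 0.000679). It was the only called member of 51 (1.96%), where 8.47% of all genes were called, 4.69% higher and 3.78% lower. Same-numbered arrays of these groups deviated together, and with the replicate number as a block 3 members were called, MRPS30 and MRPL35 lower and MRPL17 higher. MRPL35 then stood at -0.16 (limma adjusted p = 0.0448) and MRPL17 at 0.16 (adjusted p = 0.0436). That is 5.88% of members, where 11.3% of all genes were called with the block. Without the block MRPL35 had an adjusted p of 0.0522 and MRPL17 of 0.0839. MRPS30 lost its call with the mean of its probe sets. Arrays did not overlap for 12 of the 51, 9 of them lower with manassantin, where 29.2% of all genes had groups that did not overlap. Of all 11963 genes, 1571 lay apart lower with manassantin and 1926 higher.

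Digoxin against rotenone called 31 of 51 members, 9 higher and 22 lower (60.8%, where 50.5% of all genes were called, 24.2% higher and 26.3% lower). With dim genes left out, the shares called were 67.3% of members and 71.9% of the genes kept. MRPL34 differed most, with 8.13, 7.995 and 7.93 for digoxin, against 9.10, 9.24 and 9.12 for rotenone. That is -1.14 ± 0.060 (limma adjusted p = 1.85e-08). MRPL19 (-0.56), MRPS34 (-0.52), MRPL16 (-0.50) and MRPL35 (-0.44) followed. MRPS18A (0.67), MRPL42 (0.64), MRPL33 (0.46), MRPL28 (0.40) and MRPL48 (0.38) were furthest above rotenone, and the brighter probe set of MRPS30 was higher as well, at 0.33 ± 0.044. The other probe set of MRPS30 was lower with digoxin than with rotenone, at -0.20 (limma adjusted p = 0.0055 in the fit of every probe set), and the mean of both was not called, at 0.06 (limma adjusted p = 0.228). MRPL48 and MRPL35 were called in opposite directions with these compounds against DMSO. Their direct differences are the gaps between those values, and so give no separate evidence. With rotenone against DMSO, each lost its call in 7 of 15 alternatives. Arrays did not overlap for 34 of the 51, 22 of them lower with digoxin, where 58.1% of all genes had groups that did not overlap. Of all 11963 genes, 3409 lay apart lower with digoxin and 3546 higher. Centring of arrays changed the split to 25 higher and 8 lower (64.7% of members, against 72.1% of all genes), with MRPL39 turning in sign to 0.009.

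Groups that work with the mitochondrial ribosome were read beside it, with counts and medians only. Of the cytosolic ribosomal proteins, 16 of 56 were called with digoxin, 14 higher and 2 lower, with a median of 0.0415 and an SD over genes of 0.106. Nuclear-encoded subunits of the respiratory chain and ATP synthase had 33 of 63 called, 28 higher and 5 lower, with a median of 0.115. These are 28.6% and 52.4%, where 54.8% of all genes were called. The SD over the mitochondrial ribosomal proteins was 0.322 and over all genes 0.494. With rotenone 0 of 56 and 0 of 63 were called by limma, where 6.94% of all genes were called. An unadjusted p under 0.05 was found for 1 and 0 of them (1.79% and 0%, against 21.3% of all genes). With manassantin 0 of each were called by limma, where 0.97% of all genes were called. Here 0 and 9 had an unadjusted p under 0.05, the 9 being 14.3% of the respiratory subunits, against 15.8% of all genes. No test of a difference between these groups was made.

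Further proteins of the mitochondrial ribosome carry other symbols. The 3 measured ones all rose with digoxin, where 28% of all genes were called higher. PTCD3, a pentatricopeptide protein of the small subunit, rose by 0.59 ± 0.055, GADD45GIP1, at the exit of the large subunit's tunnel, by 0.29 and DAP3, a GTP-binding protein of the small subunit, by 0.15. None was called with rotenone or manassantin against DMSO, where 6.94% and 0.97% of all genes were called. DAP3 was lower with manassantin than with rotenone, at -0.18 (limma adjusted p = 0.0397).

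Of 14 measured assembly and rRNA modification factors 2 rose and 4 fell with digoxin (42.9%, where 54.8% of all genes were called). TFB1M, which methylates the small-subunit rRNA, stood at -0.76, the GTPase MTG1 at -0.57, the assembly factor RBFA at -0.47 and the rRNA methyltransferase MRM3 at 0.32. With rotenone MRM3 was the 1 called, at 0.24 (limma adjusted p = 0.0434), which is 7.14%, against 6.94% of all genes. Of 10 translation factors 1 rose and 4 fell with digoxin (50%, against 54.8% of all genes). Among the falls were the initiation factor MTIF2 (-0.59), the elongation factor TSFM (-0.34) and the release factor MTRF1 (-0.34). The dim gene GFM1, an elongation factor, rose by 0.27. None of the 10 was called with rotenone, where 6.94% of all genes were called.

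Mitochondrial tRNA charging genes were called higher for 5 of 13 and lower for 4 with digoxin (69.2%, against 54.8% of all genes). WARS2 stood at 0.74, against FARS2 at -0.52, GARS1 at -0.51 and IARS2 at -0.43. With rotenone HARS2 rose by 0.17. Of 15 genes for mitochondrial DNA replication and transcription 6 rose and 5 fell with digoxin (73.3%, against 54.8% of all genes). The helicase gene TWNK (0.91) and the transcription factor TFB2M (0.66) rose, while the mitochondrial RNA polymerase gene POLRMT (-0.64) and its elongation factor TEFM (-0.56) fell. With rotenone TWNK rose by 0.26 and DNA2 fell by 0.47. TFAM, which packages mitochondrial DNA, was the 1 gene of these lists called with manassantin against DMSO, where 0.97% of all genes were called. It stood at 9.07 on average with manassantin, against 9.38 with DMSO (-0.31 ± 0.053, limma adjusted p = 0.0258).

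Among 13 regulators of nuclear genes for mitochondria, 6 rose and 1 fell with digoxin (53.8%, against 54.8% of all genes). The coactivator PPRC1 rose by 0.76, NRF1 by 0.43, TFEB by 0.38 and GABPA, the ETS factor named above and dim here, by 0.30. With rotenone MYC rose by 0.17 (limma adjusted p = 0.047), and with manassantin MYC was lower than with rotenone, at -0.32 (limma adjusted p = 0.00188). The medians of these lists with digoxin were 0.238 for the regulators, -0.0778 for assembly, -0.0891 for translation factors, -0.0139 for tRNA charging and -0.0443 for DNA and transcription, against 0.0651 for all genes.

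Several members share a start region with a neighbour on the other strand. Of the 45 with a window, 13 had a protein-coding partner that starts within 1000 bases in the opposite direction, and the partner was measured for 10. MRPL46 and MRPS11 are such a pair, with starts 320 bases apart. With digoxin they stood at -0.10 and 0.12, neither called, with all digoxin arrays below DMSO for MRPL46 and above it for MRPS11. MRPS12 starts 181 bases from SARS2, the mitochondrial seryl-tRNA synthetase gene, which fell by 0.21 with digoxin. In the 2 pairs with both genes called with digoxin, MRPL49 (0.45) and FAU (0.17) rose and MRPL40 (-0.17) and HIRA (-0.67) fell. Over all genes, 54.8% were called with digoxin, 28% higher and 26.9% lower, and agreement within pairs was not tested. MRPL9 was called higher (0.27) beside OAZ3, which was not called (0.15, limma adjusted p = 0.31). In 4 other pairs the partner alone was called beside MRPS18B, MRPS2, MRPS27 and MRPS7, with PPP1R10 at 1.03 next to MRPS18B at 0.00.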

How the data were processed

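RNA of MDA-MB231 cells was hybridised to 12 Affymetrix arrays, 3 per group, with groups and replicate numbers from the sample titles. The authors deposited log2 probe set values (the log scale and the common scale are read from the values and their nearly equal array medians); the sources used here do not give how they were normalized. Values ran from 1.655 to 13.75 and array medians from 5.881 to 5.995. Precision is limited by the number of arrays. Of 22277 probe sets, 62 controls, 2108 with no symbol and 1043 with several were left out. The brightest probe set was kept for each of 11963 genes. limma 3.58.1 in R 4.3.3 (lmFit, eBayes) was fitted to all 12 arrays with a mean per group, with 8 residual and 3.678 prior degrees of freedom, Benjamini-Hochberg adjustment over all genes and a threshold of 0.05. The scripts were tested on simulated data. Figures were drawn with matplotlib 3.10.9.

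The members and lists were chosen with earlier results of these data known. Named were all called members in the rotenone and manassantin comparisons, the 12 largest rises and 12 largest falls with digoxin against DMSO, 5 each against rotenone, the 3 brightest and 3 dimmest members, members of known role (MRPS18A, MRPS18B, MRPS18C, MRPL11, MRPL12, MRPL58, MRPS12, MRPS30, DAP3), those with opposed probe sets, and up to 4 called genes of each other list and comparison. Others are named as chosen after their values were seen.

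Same-numbered arrays of manassantin and rotenone correlated in their deviations from group means at 0.256, 0.362 and 0.107. The main fit did not pair them, and the main values of this comparison come from that fit. Results with the replicate number as a block are given beside them as an alternative. In the other comparisons at least 1 correlation was under 0.1. Alternatives were a replicate block, an 18S covariate, array weights, a robust prior with a trend, median centring, quantile normalization, a filter on dim genes, probe sets averaged per gene or all kept, a fit of the compared groups alone, and each array left out. Promoters are RefSeq's on GRCh38.p14.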

Additional observations from a re-analysis of the deposited data

How the results depend on the processing

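Under the alternatives tried, the count of called members with rotenone against DMSO was 6 with the replicate block (11.8%, against 9.04% of all genes), 6 with array weights (11.8%, against 13.5%), 7 under a robust prior with a trend (13.7%, against 11%), 6 of 49 after the filter on dim genes (12.2%, against 18.1%), 1 with the 18S covariate (1.96%, against 2.83%) and 1 in a fit of the compared groups alone (1.96%, against 7.18%), and 1 to 2 with an array left out (1.96% to 3.92%, against 2.89% to 4.18%). With manassantin against DMSO it was 1 under the robust prior (MRPL42; 1.96%, against 4.2% of all genes) and 0 otherwise. With manassantin against rotenone it was 2 with quantile normalization, 2 with median centring, 3 with the replicate block, 2 with array weights, 3 under the robust prior, 4 after the filter on dim genes, 2 with probe sets averaged and 3 with all probe sets kept, and 1 with any array left out; the share of members was below that of all genes in each of these settings with one value per gene, at most 8.16%, against 21.5%, after the filter on dim genes. With digoxin the counts stayed within 1.5 times, at 27 to 31 against DMSO and 29 to 32 against rotenone with an array left out. Against DMSO these are 52.9% to 60.8% of members, where 49.2% to 52.9% of all genes were called. Against rotenone they are 56.9% to 62.7%, where 44.8% to 48.5% of all genes were called. Median centring moved the members' median to 0.182 for digoxin against DMSO and to 0.113 for digoxin against rotenone, to 0.00239 for manassantin against DMSO and to -0.0669 for manassantin against rotenone, and turned MRPL15 (0.012), MRPL24 (0.005), MRPL40 (0.014) and MRPL58 (0.04) against DMSO and MRPL39 (0.009) against rotenone. The centring takes a larger shift out of the digoxin arrays, whose median over all genes is lower; the other causes were not tested. The median with an array left out ran from 0.0339 to 0.0716 with rotenone, -0.0128 to 0.0197 with digoxin and 0.0212 to 0.0563 with manassantin against DMSO, and from -0.0376 to -0.00924 for manassantin and -0.103 to -0.0275 for digoxin against rotenone. The replicate block gave 32 called members for digoxin against DMSO (62.7%, against 56.7% of all genes) and 32 against rotenone (62.7%, against 52.7%), and 0 for manassantin against DMSO (against 2.43%). Where numbers do not pair the arrays, the block result says nothing of the size of an effect. Small differences are limited by 3 arrays per group and by probe sets that disagree within a gene.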
